A study of Mus musculus with 9 samples.

Results

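The switch from a serum monolayer to neurospheres was followed in cells of the adult mouse auditory nerve, by setting 3 neurosphere arrays against 3 arrays of the cultured cells from which such spheres are grown. These 6 arrays, of 9 in the series, were the samples labelled as neurospheres and as cultured cells, and all 18193 genes with a probe set naming only that gene were tested. The other 3 arrays, of freshly dissected nerve tissue, gave the level from which each change in culture had started. All mice were CBA/CaJ adults of both sexes, 8 to 12 weeks old. For the cultured cells, nerves were dissociated with trypsin and DNase I and plated on poly-L-ornithine and fibronectin, and the cells were grown in medium with 10% serum and B27 until confluent, after 5 to 7 days. For the neurospheres, the medium of such cultures was then exchanged for a serum-free proliferation medium with EGF at 20 ng/ml, FGF at 10 ng/ml and heparin at 2 µg/ml, in which they stayed for 12 days. Loss of serum, the added growth factors, the longer time in culture and the change from an attached layer to floating clusters therefore cannot be told apart. Whether the 3 arrays of a kind stand for different mice or separate dishes is not given in the labels, and p-values accordingly measure only how far these arrays spread, which may be technical.

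The auditory nerve holds the axons and cell bodies of spiral ganglion neurons, the Schwann cells and satellite glia around them, and fibroblasts, vessels and resident macrophages. Adherent cells in serum spread on the dish, build actin stress fibres and divide, whereas EGF and FGF act through receptor tyrosine kinases that feed the RAS and ERK cascade. Growth as free spheres under these factors is the classical assay for neural stem and progenitor cells, and the assay does not by itself exclude other cells that survive in suspension.

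The 6 arrays fell into their labelled groups, with correlations across genes of 0.993 to 0.996 among neurospheres, 0.996 to 0.997 among cultured cells and 0.959 to 0.966 between them (genes are not independent replicates). On the second principal component (15.7% of the variance between the 9 arrays) cultured cells lay between -47.58 and -45.52, neurospheres between 43.44 and 47.52 and tissue between 0.58 and 0.79. The median SD of a gene over the 3 arrays was 0.12 (log2) in neurospheres and 0.10 in cultured cells. The 3' control probe set of actin exceeded the 5' set by 0.36 ± 0.037 (log2, SD, n = 3) in cultured cells and 0.70 ± 0.15 in neurospheres, with no overlap, and by 2.71 ± 0.35 in tissue. RNA integrity by this measure therefore went with the groups compared, and its part in the results was not tested. Xist, the transcript of the inactive X chromosome, was at 12.73, 12.69 and 12.80 (log2) on cultured cell arrays 1 to 3 and at 5.85, 12.80 and 8.97 on neurosphere arrays 1 to 3. The Y-linked gene Eif2s3y was at 3.19 to 3.53 in the cultured cells and at 10.60, 6.35 and 10.45 in the neurospheres. Sex-linked expression thus differed between the sphere and the cultured cell samples, and among the sphere samples. The Y-linked Eif2s3y, Kdm5d and Uty are among the genes counted as risen, and they were not ranked among the single genes. Of 618 X-linked genes 49 rose and 78 fell between spheres and cultured cells, 20.6% in all beside 17.9% of all genes, and the part of the animals' sex in the results was not tested.

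Between neurospheres and cultured cells 3259 genes changed, 17.9% of those tested, of which 1638 rose (9.0%) and 1621 fell (8.91%). A gene passed where limma's Benjamini-Hochberg adjusted p was under 0.05 and the fold change was over 1.5. In 3246 of the 3259 the values on the 3 sphere arrays did not overlap those on the 3 cultured cell arrays. The 3259 had been called on these same arrays by p and fold, a choice that itself favours separated values. The count therefore describes the called genes and is not separate evidence for the calls. Changes above 4-fold were found in 450 genes, 241 up and 209 down, and changes above 16-fold in 61, 34 up and 27 down. The median log2 change over all genes was 0.05.

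The largest rise was that of Prg4, which encodes lubricin, a secreted mucin-like glycoprotein of joint and tendon surfaces. Prg4 was at 4.0, 4.55 and 5.71 (log2) on cultured cell arrays 1 to 3 and at 11.99, 11.35 and 12.01 on the sphere arrays, a log2 change of 7.03 (SE 0.39, limma adjusted p = 6.35e-06). All 3 sphere arrays lay above all 3 cultured cell arrays, and on the tissue arrays Prg4 was at 10.92 to 11.38. The largest fall was that of Aspn (asporin), a small leucine-rich proteoglycan that binds collagen. Aspn was at 10.75 ± 0.25 (log2, SD, n = 3) in cultured cells and at 4.01, 3.36 and 3.12 on the sphere arrays, a fall by 7.25 (SE 0.22, limma adjusted p = 4.65e-07). The sphere arrays also lay below the tissue arrays, where Aspn was at 6.06 to 6.58.

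Among the 12 largest rises were genes of secreted signals, proteases and surface proteins. Mmp3 (stromelysin 1), a metalloproteinase that cleaves matrix proteins, rose from 7.18, 7.93 and 7.78 (log2) on the cultured cell arrays to 13.76, 13.74 and 13.69 on the sphere arrays, and was at 3.88 to 4.41 in tissue. St8sia1, the GD3 ganglioside synthase, rose by 5.69 (SE 0.13), and 2 other probe sets of the gene gave 4.62 and 5.62. Il11, a cytokine of the IL-6 family, was at 4.81 to 5.22 in cultured cells and at 12.37, 9.40 and 9.84 in the spheres, so that its level on sphere array 1 stood apart from the others. Ccl11 (eotaxin) rose by 5.55, Agtr2, an angiotensin II receptor, by 5.34 and Mmp9 (gelatinase B) by 5.23. Cd53, a tetraspanin known from leukocytes, rose by 5.11, Prom1, a membrane protein used as a stem cell marker (CD133), by 5.08, and Arg2, a mitochondrial arginase, by 4.93. Acpp, an acid phosphatase, rose by 4.90 while 2 dimmer probe sets of the gene gave 1.38 and 1.0, and Itih5, of the inter-alpha-trypsin inhibitor family, rose by 4.86.

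The 12 largest falls held matrix proteoglycans, morphogens and enzymes of retinoid breakdown and synthesis. Fmod (fibromodulin) and Omd (osteomodulin), of the same proteoglycan family as Aspn, fell by 6.48 (SE 0.22) and 6.35 (SE 0.16). Fmod was at 10.75 to 10.90 (log2) in cultured cells, at 10.38 to 10.74 in tissue and at 4.05 to 4.96 in spheres, so that the spheres stood far from both. Rspo2, a secreted enhancer of Wnt signalling, fell by 6.33, although a second and dimmer probe set had a change of -0.17. Bmp4, a bone morphogenetic protein, fell from 12.76, 12.05 and 12.40 to 7.00, 7.46 and 6.51. Cyp26b1, which breaks down retinoic acid, fell by 5.71 (SE 0.17) and reached 6.32 to 6.63 in the spheres, a range that overlapped that of tissue (6.51 to 7.02). Aldh1a1, an enzyme that makes retinoic acid, fell by 4.94, Car3, a carbonic anhydrase, by 4.86 and Dcc, a netrin receptor, by 4.81. Elavl2, an RNA-binding protein of neurons, fell by 4.89 and Elobl by 6.76. Acta2, the smooth muscle actin, fell by 4.93, and its 2 dimmer probe sets gave -1.99 and -0.17.

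**Figure D1:**
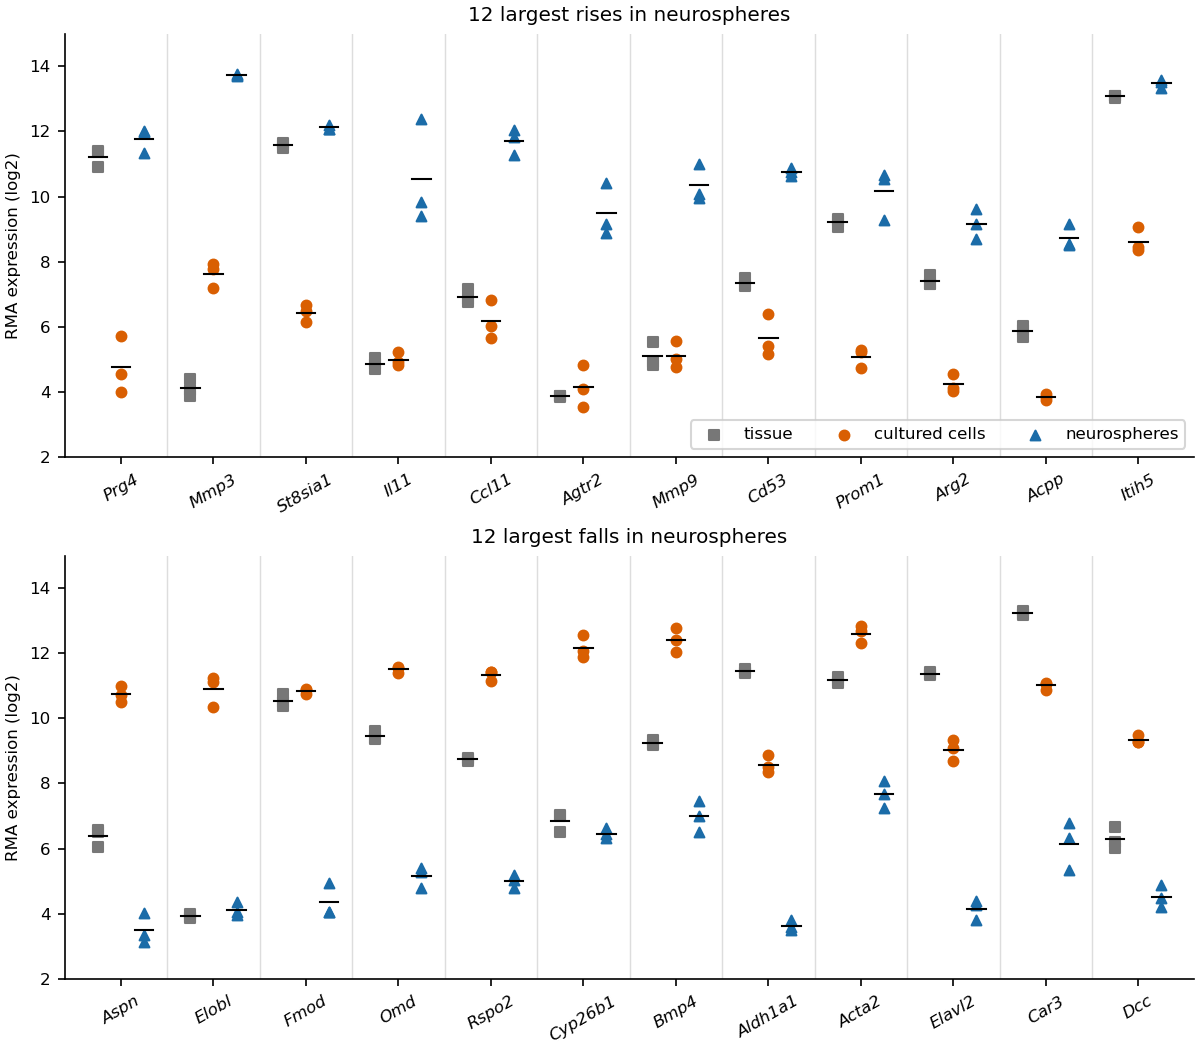
RMA expression (y axis, log2) of the leading 12 risen and 12 fallen genes in neurospheres against cultured cells. Each point is 1 array (squares, tissue; circles, cultured cells; triangles, neurospheres), black bars are means of 3 arrays, and the 3 sphere arrays lie apart from the 3 cultured cell arrays in every gene shown, as the rule for choosing them required.

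Each of the 3259 changes was then set against the change that culture itself had brought, for which the cultured cells were compared with tissue. In that comparison 7718 genes passed (42.4%), and between neurospheres and tissue 7762 passed (42.7%). The comparisons share arrays, so that a chance deviation of the cultured cell arrays would by itself move a gene away from tissue and back again, and no test was made of the counts that follow. Of the 3259 changed genes, 1534 moved back towards the tissue level, 640 by rising and 894 by falling. Moving back means here a change opposite in direction to that of culture, whatever its size. Another 708 moved further from tissue, 354 up and 354 down, and 1017 changed between cells and spheres without having passed between tissue and cultured cells, 644 up and 373 down.

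The return differed in extent between these genes. The median gene that moved back recovered 65.6% of the log2 change that culture had brought, and 1015 of the 1534 recovered more than 50%. Of the 1534, 729 passed part of the way and still differed from tissue (median 42.0% recovered), 650 gave no call against tissue (89.6%), and 155 went past it (205%). Many of these 155 overshot so far that they ended further from tissue than the cultured cells were. Acta2 differed from tissue by 1.44 (log2) in cultured cells and by -3.49 in spheres. Genes that had risen in culture numbered 3707, of which 894 (24.1%) fell again in the spheres and 354 (9.55%) rose further. Genes that had fallen in culture numbered 4011, of which 640 (16%) rose again and 354 (8.83%) fell further. Over all genes the spheres were no nearer to tissue than the cultured cells were: the median distance from tissue was 0.45 (log2) in both, and 9204 genes (50.6%) were closer in the spheres.

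Among the falls above 16-fold, 22 of 27 moved back and 15 of these went past the tissue level, as Aspn, Omd, Rspo2 and Bmp4 did. Among the rises above 16-fold, 17 of 34 moved back, 10 of these past tissue, while 7 moved further from it and 10 had given no call between tissue and cultured cells. Prg4, St8sia1 and Itih5 were high in tissue, low in cultured cells and high again in the spheres, with no call between spheres and tissue. Cyp26b1 and Elobl were low, high and low in the same way. Mean levels of Prg4, St8sia1 and Itih5 were still above tissue, by 0.56, 0.54 and 0.40 (limma adjusted p = 0.037, 0.00065 and 0.006). These differences were under the fold threshold. Genes that moved further from tissue by rising were led by Mmp3, Mmp12 (macrophage metalloelastase), Il33 and Tslp, cytokines released by stromal and epithelial cells. Il33 was at 8.27 to 8.50 (log2) in tissue, 8.78 to 9.36 in cultured cells and 13.49 to 13.81 in spheres. Those that moved further by falling were led by Aldh1a1, Elavl2, Car3 and Cntn3, a neural adhesion molecule. Cntn3 was at 9.38 to 9.55 in tissue, 8.50 to 8.63 in cultured cells and 4.12 to 4.43 in spheres.

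**Figure D2:**
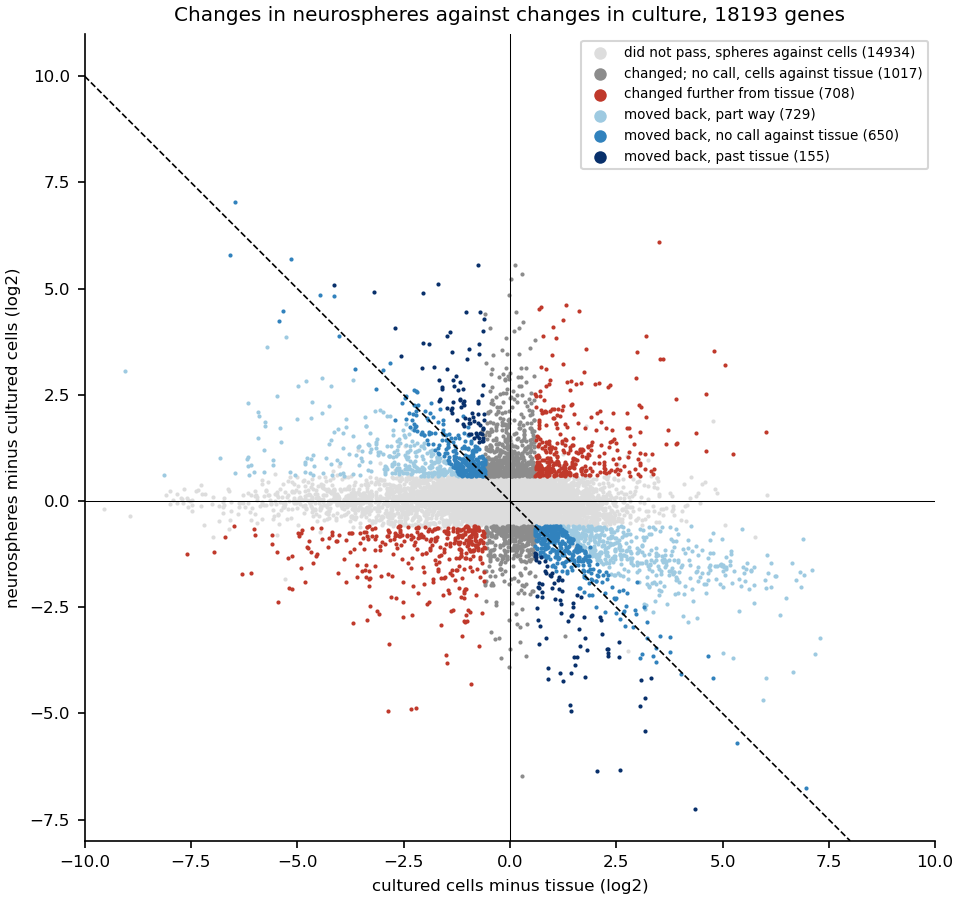
Log2 change of each of 18193 genes between tissue and cultured cells (x axis) and between cultured cells and neurospheres (y axis), coloured by class. Points on the dashed line would have returned exactly to the tissue level; blue genes moved back (1534), red genes moved further away (708), and both axes share the cultured cell arrays.

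Counts in each gene list below are to be read beside 9.0% of all genes rising and 8.91% falling. Mitosis genes fell without exception. All 24 measured members of the list passed, against 8.91% of all genes falling, with a median log2 change of -1.71 and a range of -2.05 to -1.32. Mki67, the antigen of cycling cells, was at 11.78, 11.74 and 11.70 (log2) on the cultured cell arrays and at 10.01, 9.51 and 9.62 on the sphere arrays, a fall by 2.03 (SE 0.13, limma adjusted p = 1.24e-05). Kif20a, a mitotic kinesin, fell by 2.05, and Cenpe, a kinetochore motor, by 2.04. The anaphase genes Cdc20 and Ube2c, which act with the complex that degrades cyclins, fell by 1.91 and 1.86. All 24 moved back part of the way and none reached the tissue level: the median member was at 4.95 in tissue, 10.68 in cultured cells and 8.83 in spheres. Of 22 DNA replication genes 18 fell and none rose (median -1.15), and these 18 also lay between tissue and cultured cells. Mcm5, a subunit of the replicative helicase, fell by 1.72 and Rrm1, of ribonucleotide reductase, by 1.63. E2f1, Cdt1, Tyms and Gins2 did not pass.

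Most of these mitosis genes share a short promoter element, which is why a pair of their promoters is shown. The cell cycle homology region (CHR), TTTGAA on either strand, was present in the RefSeq promoter window (GRCm38.p6, 250 bases before to 50 after the start) of 15 of the 20 mitosis genes with a window, 75%, and of 15.7% of the 14452 measured genes with one. The motif is given in capitals, with its first base at position -18 in Cdc20 (chr4:118437294-118437593, minus strand) and at -29 in Ube2c (chr2:164769679-164769978, plus strand), where it stands as its reverse complement. A match is a description of these letters and not a shown site of binding.
Cdc20: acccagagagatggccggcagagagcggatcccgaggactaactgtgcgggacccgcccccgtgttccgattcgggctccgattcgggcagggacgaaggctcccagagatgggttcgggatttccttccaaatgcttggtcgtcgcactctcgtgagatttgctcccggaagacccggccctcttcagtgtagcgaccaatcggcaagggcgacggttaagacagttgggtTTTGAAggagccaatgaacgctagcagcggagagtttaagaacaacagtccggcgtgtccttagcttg
Ube2c: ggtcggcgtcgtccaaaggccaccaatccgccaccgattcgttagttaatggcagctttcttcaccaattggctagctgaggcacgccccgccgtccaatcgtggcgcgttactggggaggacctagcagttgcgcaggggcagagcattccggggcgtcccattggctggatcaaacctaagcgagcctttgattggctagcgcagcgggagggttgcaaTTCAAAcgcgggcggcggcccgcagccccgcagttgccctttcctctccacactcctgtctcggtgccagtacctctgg

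Cyclins and their inhibitors did not move as a block. In this list of 12 genes 4 rose and 2 fell. Cdkn2b, which encodes the CDK4 and CDK6 inhibitor p15, rose from 8.23, 8.44 and 8.36 (log2) to 10.39, 10.81 and 10.62, and Cdkn2a, of the same locus, rose by 0.91. Ccnd1 and Cdk6, which drive entry into the cycle, rose by 0.63 and 0.61 while the mitosis genes fell. Cdkn1c (p57) fell by 2.95 and Ccnd2 by 0.68. Of 13 p53 targets Gadd45a rose, by 2.94, and Perp fell, by 1.37, which is 15.4% of the list beside 17.9% of all genes. Cdkn1a (p21) had a log2 change of 0.33 and did not pass.

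The contractile apparatus also fell. Of 19 genes of smooth muscle and stress fibres 16 fell (84.2%, beside 8.91% of all genes), none rose and 3 did not pass (median -1.20). Myl9, a regulatory myosin light chain, was at 12.45, 12.30 and 12.45 (log2) in cultured cells and at 8.03, 7.55 and 7.68 in spheres, a fall by 4.65 (SE 0.13, limma adjusted p = 3.15e-07). Tagln (transgelin) fell from 12.60, 12.69 and 12.67 to 9.96, 8.16 and 8.45, with sphere array 1 the highest of the 3. Actg2, a smooth muscle actin, fell by 4.03 and Cnn1 (calponin) by 3.24, and Cnn1 in spheres (4.19 ± 0.19, SD, n = 3) gave no call against tissue (4.19 ± 0.084). Tpm1 (tropomyosin 1) fell by 1.28, and the actin-binding or adhesion proteins Flna, Vcl and Zyx fell by 1.21, 1.20 and 0.82. Falls below 1 were also found for muscle genes, as in Des (desmin, by 0.65), Tpm2 (by 0.66) and Smtn (smoothelin, by 0.60). Of the 16, 12 moved back towards tissue, 3 of them past it, and the other 4 had not passed in culture. Myh11, the myosin heavy chain of mature smooth muscle, was at 4.44 in cultured cells and 4.51 in spheres and did not pass.

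Targets of SRF and of YAP and TEAD, transcription factors that respond to actin tension, moved the same way. Among the 16 measured targets 13 fell (81.2%, beside 8.91% of all genes) and none rose (median -1.13). Of the 13, 12 moved back towards tissue. Amotl2 fell by 3.68 (SE 0.14), Ankrd1 by 2.74, Ajuba by 2.57 and Ccn1 (CYR61) by 2.44. A pair of dimmer probe sets of Ccn1 gave -0.58 and -0.54 and did not pass. Srf itself fell by 1.34 and Tead1 by 1.49, both to levels with no call against tissue. The CArG box, the element bound by SRF, was searched only as CCWWWWWWGG, where W is A or T. This form was found in 2 of 16 smooth muscle genes with a promoter window (Myl9 and Vcl). It was also in 2 of 11 SRF, YAP and TEAD targets with one (Fhl2 and Srf), and in 1.58% of all measured genes with a window. Variants of the element were not searched, so a gene without a match, such as Acta2, may still hold one. The Myl9 promoter is shown because this gene had the largest fall of those with the element, given in capitals with its first base at -161 (chr2:156775214-156775513, plus strand).
Myl9: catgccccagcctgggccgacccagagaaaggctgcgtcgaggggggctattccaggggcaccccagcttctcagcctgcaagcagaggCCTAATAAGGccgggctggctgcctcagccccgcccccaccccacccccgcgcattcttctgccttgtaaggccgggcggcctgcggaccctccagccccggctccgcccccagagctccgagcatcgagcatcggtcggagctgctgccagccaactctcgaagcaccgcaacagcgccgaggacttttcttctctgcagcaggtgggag

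Feedback genes of the ERK cascade rose. Among the 16 on the list 13 rose, against 9.0% of all genes, and 1 fell (median 1.04). Dusp6, a phosphatase that inactivates ERK, rose from 10.68, 10.74 and 10.88 (log2) to 12.94, 12.91 and 12.86, a log2 change of 2.14 (SE 0.086, limma adjusted p = 1.5e-06). Etv4, an ETS transcription factor, rose from 6.73, 7.08 and 6.83 to 9.24, 9.27 and 9.25. The cascade inhibitors Spry4, Spred3 and Spry1 rose by 2.06, 1.81 and 1.79, and Ier3, an early response gene, by 2.07. In 9 of the 13 the rise went further in the direction that culture had taken, and the other 4 had given no call there. The member that fell was Egr1, by 0.65, and its call was lost under 8 of the alternatives. Of 16 immediate early genes 2 rose, 6 fell and 8 gave no call. Fosb fell by 3.64 and Fos by 1.23, to 7.25, 6.71 and 5.35 for Fosb on the sphere arrays, while Egr3 rose by 1.39 and Jun by 0.73. A second probe set of Jun gave 0.29.

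Receptors and ligands of EGF and FGF were mixed, with 7 of 25 up, 6 down and 12 without a call. In all 52% passed, beside 17.9% of all genes. Lrig1, a negative regulator of EGF receptors, rose from 7.69, 8.07 and 8.12 (log2) to 10.77, 11.34 and 11.12. The EGF receptor ligands Btc (betacellulin) and Ereg (epiregulin) rose by 2.85 and 1.63. Fgf1 rose by 2.31 to 7.25 ± 0.36 (SD, n = 3), still below its tissue level of 11.09 ± 0.15. Fgfr2 fell by 3.36, past its tissue level, and Fgf18, Nrg1, Fgfr3 and Fgfr4 fell by 2.05, 1.82, 1.01 and 1.01. Egfr itself was at 9.10 in cultured cells and 8.87 in spheres and did not pass, and Fgfr1 rose by 0.77. In the PDGF and insulin-like growth factor system 3 of 19 rose and 7 fell, with Igfbp3, which binds IGF, up by 3.0 and Pdgfc, Irs1 and Pdgfd down by 1.84, 1.79 and 1.34.

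Matrix proteases rose and moved away from tissue. Of 21 proteases and inhibitors 14 rose, 2 fell and 5 did not pass (median 1.37), and 12 of the 14 had already risen in culture. The share that passed was 76.2%, beside 17.9% of all genes. Mmp12 rose from 4.71, 4.98 and 5.92 (log2) to 10.92, 9.25 and 9.27, the collagenase Mmp13 from 7.80, 9.29 and 10.03 to 12.63, 12.53 and 12.53, and Mmp10 (stromelysin 2) from 5.22, 5.10 and 5.00 to 8.86, 7.60 and 7.92. In all 3 the sphere arrays lay above the cultured cell arrays, and sphere array 1 was the highest. Plau, the urokinase activator of plasminogen, rose by 3.04 and Serpinb2, its inhibitor, by 3.33. The aggrecanase Adamts5 went against the list, falling by 3.86, and so did the inhibitor Timp3, by 0.93, while the aggrecanase Adamts4 rose by 2.12.

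The stromelysin, elastase and collagenase genes lie close together on chromosome 9, and their promoters are shown because each held the AP-1 element TGANTCA a short way before its start. The element was present on either strand in the window of 6 of the 14 genes of this list with a window (42.9%) and of 7.54% of all measured genes with one. The other 2 were Plaur and Serpinb2, and all 6 rose. Without the element, Mmp11, Ctsk and Timp1 also rose, Timp3 fell, and Adamts1, Mmp14, Timp2 and Timp4 did not pass. The element was in the window of 10.4% of all risen and 6.18% of all fallen genes with one. In capitals, the first base of the element was at -46 in Mmp3 (chr9:7445572-7445871, plus strand), -63 in Mmp10 (chr9:7502092-7502391, plus strand), -44 in Mmp12 (chr9:7347124-7347423, plus strand) and -35 in Mmp13 (chr9:7272264-7272563, plus strand). No binding was measured.
Mmp3: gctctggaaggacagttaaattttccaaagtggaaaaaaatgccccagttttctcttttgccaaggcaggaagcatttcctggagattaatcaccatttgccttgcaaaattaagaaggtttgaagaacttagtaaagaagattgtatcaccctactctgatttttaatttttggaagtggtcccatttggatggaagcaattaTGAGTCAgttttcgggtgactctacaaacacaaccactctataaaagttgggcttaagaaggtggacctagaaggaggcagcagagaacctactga
Mmp10: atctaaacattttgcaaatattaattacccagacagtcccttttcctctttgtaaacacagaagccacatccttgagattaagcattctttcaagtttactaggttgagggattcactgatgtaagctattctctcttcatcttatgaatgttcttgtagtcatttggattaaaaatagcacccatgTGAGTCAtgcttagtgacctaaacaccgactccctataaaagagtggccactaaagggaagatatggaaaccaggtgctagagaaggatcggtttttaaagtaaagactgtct
Mmp12: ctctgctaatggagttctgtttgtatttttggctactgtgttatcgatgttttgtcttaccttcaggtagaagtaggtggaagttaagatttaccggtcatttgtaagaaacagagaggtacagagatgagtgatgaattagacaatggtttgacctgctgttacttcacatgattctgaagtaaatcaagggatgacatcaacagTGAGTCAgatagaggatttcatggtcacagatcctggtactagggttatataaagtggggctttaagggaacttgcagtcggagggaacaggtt
Mmp13: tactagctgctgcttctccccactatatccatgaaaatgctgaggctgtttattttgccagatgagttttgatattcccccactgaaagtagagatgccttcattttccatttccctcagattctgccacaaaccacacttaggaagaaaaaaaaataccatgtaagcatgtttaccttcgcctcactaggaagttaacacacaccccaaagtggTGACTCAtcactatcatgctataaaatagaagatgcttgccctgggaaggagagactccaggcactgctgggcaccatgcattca

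**Figure D3:**
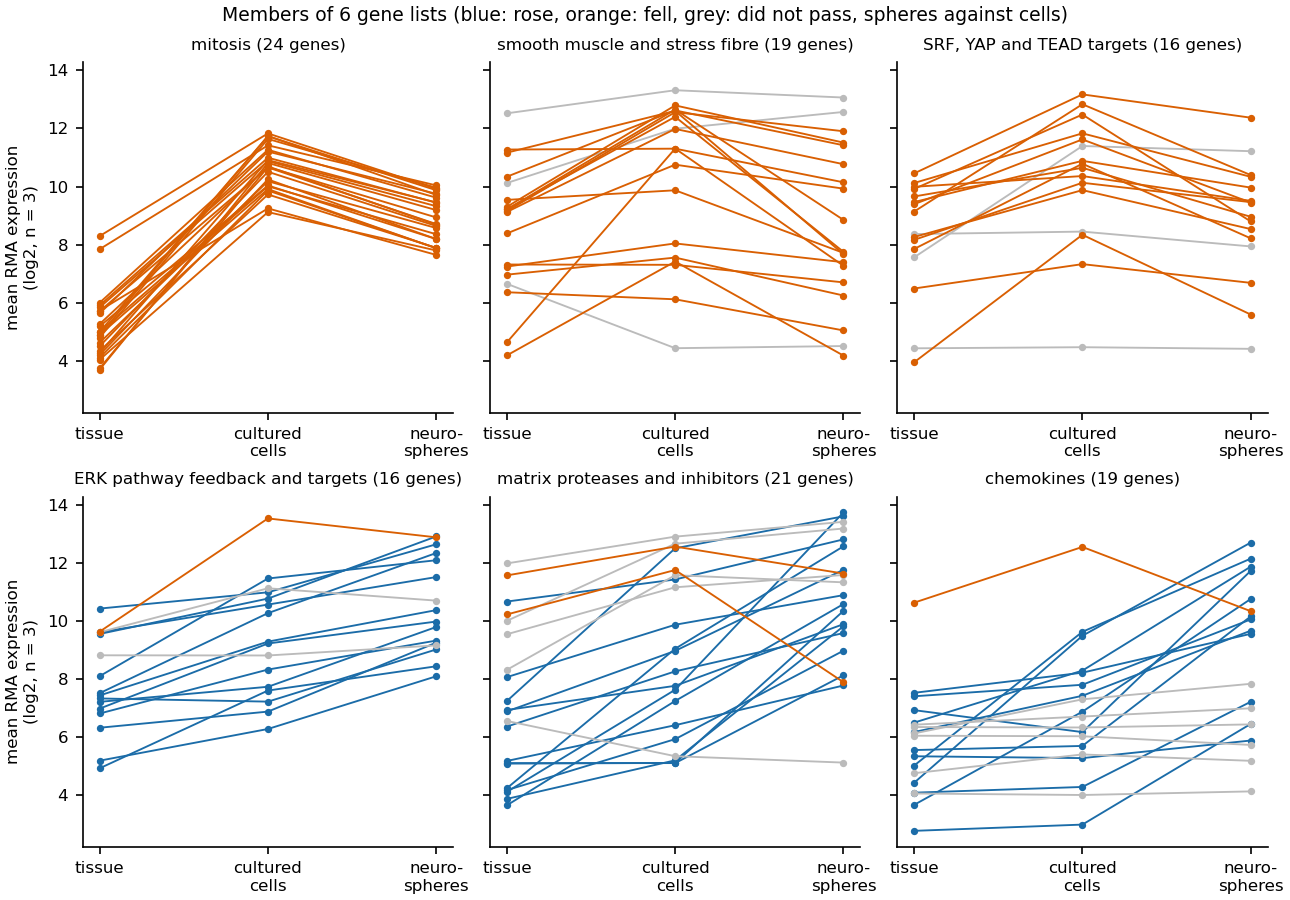
Mean RMA expression (y axis, log2, n = 3 arrays) in tissue, cultured cells and neurospheres for each member of 6 gene lists, with lines joining the values of a gene. Blue genes rose, orange genes fell and grey genes did not pass between spheres and cultured cells; the 24 mitosis genes all lay between their tissue and cultured cell levels, whereas 12 of 21 protease genes rose further from tissue.

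Chemokines rose with the proteases. Among 19 chemokine genes 12 rose and 1 fell (median 2.24), 68.4% of the list beside 17.9% of all genes. Cxcl5, which attracts neutrophils, rose from 6.82, 6.89 and 6.92 (log2) to 10.63, 10.60 and 11.02, and Ccl8, which attracts monocytes, rose by 4.45 (SE 0.23). Cxcl1 and Ccl2 rose by 3.58 and 3.21, both having risen in culture before. The member that fell was Cxcl12, a homeostatic chemokine of stromal cells, from 12.46, 12.54 and 12.63 to 10.01, 10.36 and 10.64, and it gave no call against tissue (10.58 to 10.68). Of 26 genes of inflammatory cytokines and the acute phase 14 rose, 2 fell and 10 did not pass (median 0.95), so that 61.5% passed. Lif, of the IL-6 family, rose by 4.47, Saa3, Hp and Lcn2, which are acute phase genes, by 3.51, 3.35 and 2.89, and Ptges, a prostaglandin E synthase, by 3.23. Csf1 fell by 1.39 and Vcam1 by 0.99, the last with a second probe set that gave 0.67. Il1a, Il1b, Tnf and Nos2 did not pass. None of 13 interferon response genes passed by limma, 1 of them had an unadjusted p under 0.05 (Cxcl10, 7.56, 9.71 and 7.59 in spheres against 6.61 to 7.26 in cultured cells), and none passed by the methods' t-test.

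The matrix itself changed in composition. Of 23 proteoglycans, elastic fibre and matricellular genes 12 fell, 2 rose and 9 did not pass (median -0.89), and 10 of the 12 moved back towards tissue. Beside Fmod and Omd, Ogn (osteoglycin) fell by 4.23, Fbln5 (fibulin 5) by 3.65 and Mfap5 by 3.22, these 3 past their tissue levels. The 2 that rose were also leucine-rich proteoglycans: Lum (lumican), from 10.31, 10.13 and 10.59 (log2) to 12.73, 12.76 and 12.76, and Dcn (decorin), from 12.35, 11.87 and 12.14 to 13.97, 13.81 and 13.88. Members of this family thus moved in both directions. Fn1 (fibronectin) and Sparc had log2 changes of -0.01 and -0.15 and did not pass. Among 18 genes of fibrillar collagens and their processing 7 fell and 3 rose. Col1a1 fell by 3.69 (SE 0.29), and its partner chain Col1a2, by the probe set used, had a change of -0.36 and did not pass. Col5a3 rose by 2.70, Bmp1, the procollagen proteinase, by 2.04 and Col3a1 by 0.73. The prolyl hydroxylases P4ha3 and P4ha2 fell by 1.69 and 1.65. In the basement membrane list 4 of 14 rose and 2 fell, with Col15a1 at 5.78 to 6.48 in cultured cells and 9.56 to 10.38 in spheres.

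Signalling pathways of development were mixed. TGF-beta genes rose in 7 of 16 and fell in 5: Inhba, Tgfb1, Tgfbr1 and the induced matrix protein Tgfbi rose by 1.73, 1.67, 1.57 and 1.37, while Smad6 and Smad7, inhibitory Smads, fell by 2.45 and 1.52 and Tgfb2 by 1.64. Of 20 BMP genes 3 rose and 6 fell. Bmp2 rose by 2.65 and Bmp1 by 2.04, against Bmp4 above, Id4 fell by 2.58 and Fst (follistatin) by 1.40. Of 24 Wnt genes 3 rose and 9 fell, led by Sfrp2, a secreted Wnt inhibitor, by 3.61, Wnt4 by 2.96 and Nkd2, a feedback inhibitor, by 2.30. Frzb rose by 0.88, with its call lost under 7 alternatives, Fzd1 by 0.77 and Wnt5b by 0.62. Of 13 retinoid genes 4 rose and 5 fell, with Crabp1, which binds retinoic acid, up by 2.30 and Aldh1a3, which makes it, up by 2.0. Of 21 Notch genes 3 rose and 1 fell, a share of 19.0% that is near the 17.9% of all genes: Notch4, Dll1 and Hes1 rose by 1.60, 0.79 and 0.66 and the ligand Jag1 fell by 1.23.

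Metabolic and stress lists differed in how many members passed, from 5% of the cholesterol synthesis genes to 62.5% of the oxidative stress genes, beside 17.9% of all genes. Of 20 cholesterol synthesis genes only Mvk passed, falling by 0.69, and Hmgcs1 was at 11.85 to 12.01 (log2) in cultured cells and at 11.71 to 12.20 in spheres. The sterol element TCACNCCAC was found in the window of 1 of 16 of these genes (Hmgcs1) and of 1.46% of all. Of 19 genes of fatty acid synthesis and storage 2 rose and 3 fell, with Elovl6 up by 1.43, Lpl up by 1.37 and Me1 down by 1.30. Of 20 glycolysis and hypoxia genes 4 rose, among them Vegfa by 1.28 and the glucose transporter Slc2a1 by 1.01. Adm (adrenomedullin) fell in that list by 3.70, from 12.26 ± 0.06 to 8.57 ± 0.19 (SD, n = 3). Of 18 amino acid stress genes 7 fell, including the serine synthesis enzymes Phgdh and Psat1 by 1.37 and 1.13, and Nupr1 rose by 2.09. Of 16 genes of the unfolded protein response Xbp1 rose, by 0.88, and Sdf2l1 fell, by 0.67. Among 16 oxidative stress genes 5 rose and 5 fell, with Sod3, Mt1 and Mt2 up by 2.88, 2.59 and 2.40 and Gstm1 and Hmox1 down by 1.34 and 1.28. Among 11 histone deacetylases Hdac9 rose by 1.73 and Hdac7 fell by 1.38, a share of 18.2% that is near that of all genes.

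**Figure D4:**
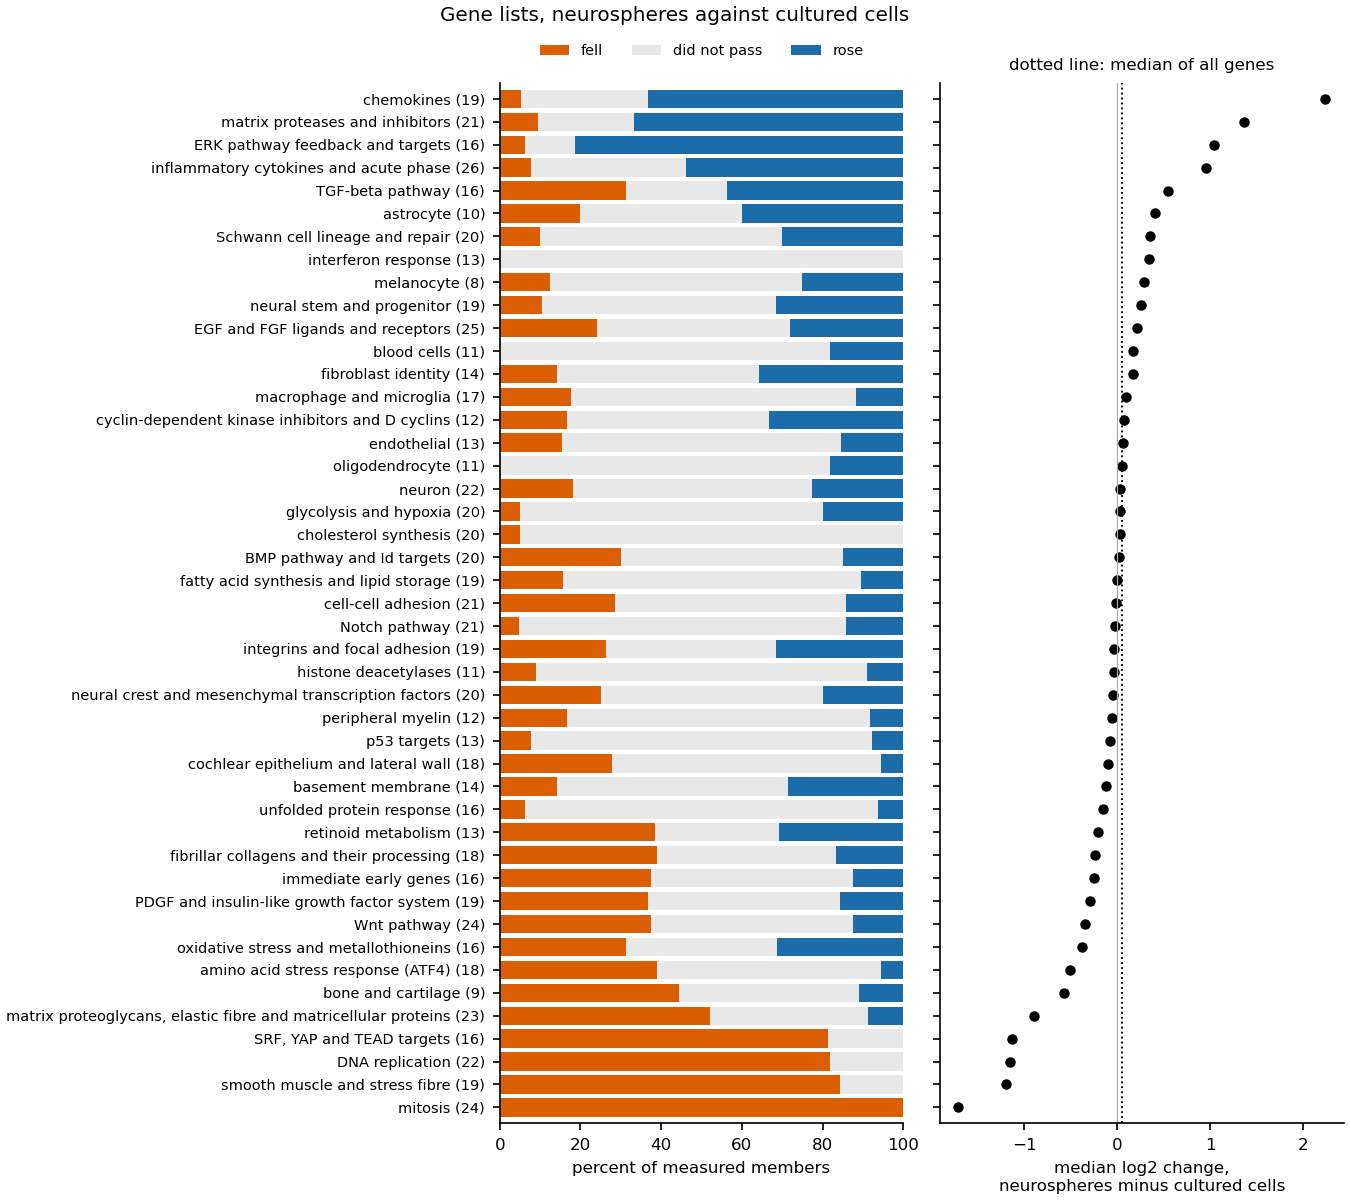
Left, percent of the measured members (number in brackets) of each gene list that fell (orange), rose (blue) or did not pass (grey) in neurospheres against cultured cells; right, the median log2 change of the list, with a dotted line at the median of all genes, 0.05. Mitosis (24 of 24 fell) stands at the bottom and chemokines (12 of 19 rose) at the top.

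Neural stem and progenitor markers did not move together. On this list of 19 genes 6 rose, 2 fell and 11 gave no call (median 0.25), so that 42.1% passed beside 17.9% of all genes. Prom1 was at 4.73, 5.22 and 5.30 (log2) in cultured cells and at 9.28, 10.67 and 10.54 in spheres, beside 9.08 to 9.32 in tissue. Nes (nestin), an intermediate filament of progenitors that many dividing cells also express, rose from 8.97, 9.11 and 9.13 to 9.89, 9.90 and 10.01, further from tissue (7.22 to 7.89). Sox2 was at 5.60, 6.71 and 7.61 in cultured cells and 6.93, 8.00 and 7.47 in spheres, ranges that overlapped (log2 change 0.83, SE 0.47, limma adjusted p = 0.215), and at 10.48 to 10.82 in tissue. Sox9, Msi2, Fut4 and Hes1 rose by 0.99, 0.81, 0.74 and 0.66. Fabp7, a fatty acid binding protein of radial glia, fell by 1.81 and Melk, a kinase that is also a cell cycle gene, by 2.03. Vim, Cd44, Gfap, Bmi1 and the forebrain genes Pax6, Nr2e1 and Olig2 did not pass.

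Schwann cell genes moved back towards tissue in 5 of 20 members (4 by rising) and neuronal genes in 5 of 22 (all by rising). The median log2 changes of the lists from tissue to cultured cells were -2.32 and -4.18. Among all 4011 genes that had fallen in culture, 640 (16%) rose again in the spheres. The share over all genes, 1534 of 18193, also counts genes that culture had not changed. Of 20 genes of the Schwann cell lineage and repair state 6 rose, 2 fell and 12 did not pass. The share that passed was 40%, beside 17.9% of all genes. The median member was at 9.84 in tissue, 7.13 in cultured cells and 7.43 in spheres. The GDNF receptor Gfra1 and the Schwann cell precursor cadherin Cdh19 rose by 2.0 and 1.47, part of the way to tissue, and Gap43, a growth cone protein that culture had raised by 3.05, rose by a further 0.91, away from tissue. Sox10 was at 7.06, 7.20 and 7.39 (log2) in cultured cells and 7.11, 7.78 and 7.60 in spheres, against 11.27 to 11.47 in tissue, and did not pass, nor did Ngfr, S100b, Erbb3 and Foxd3. Of 12 peripheral myelin genes Ncmap rose by 0.69, and Ugt8a and Pmp22 fell further, by 2.38 and 0.74. Of 10 astrocyte list genes 4 rose, all towards tissue, among them the glutamate transporter Slc1a3 by 1.56 (its 5 other probe sets gave 0.53 to 2.03) and Atp1b2 by 1.26. Slc1a2 and Fgfr3 fell, by 1.5 and 1.01. Of 11 oligodendrocyte genes Aspa and Olig1 rose, by 0.87 and 0.69, and this 18.2% is close to the 17.9% of all genes.

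Of 22 neuronal genes 5 rose, 4 fell and 13 did not pass (median 0.03), so that 40.9% passed beside 17.9% of all genes. Snap25, a protein of synaptic vesicle release, was at 4.72, 4.55 and 4.90 (log2) in cultured cells, at 8.58, 7.21 and 7.55 in spheres and at 13.68 to 13.87 in tissue. Ntrk2, which encodes the BDNF receptor TrkB, rose from 7.37, 7.40 and 8.03 to 10.15, 10.94 and 11.19, while its 7 other probe sets gave between 0.15 and 3.99. Uchl1 and Nefm, a neurofilament subunit, rose by 1.39 and 1.0. Stmn2 and Gata3 fell by 2.60 and 1.5, and Map2 by 0.73. Tubb3 was at 6.88, 7.50 and 7.29 in cultured cells and 7.26, 7.13 and 7.30 in spheres, with no separation of the groups.

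Of 14 genes of fibroblast identity 5 rose, 2 fell and 7 did not pass, with a median log2 change of 0.17. This is 50% of the list, beside 17.9% of all genes, that passed. Dpt (dermatopontin), Cd34, Fap and Pi16 rose by 2.91, 1.86, 1.29 and 1.28, Twist2 rose by 0.97, and Dpp4 and Thy1 fell by 2.15 and 0.89. The PDGF receptors Pdgfra and Pdgfrb had log2 changes of 0.24 and -0.02 and did not pass. Of 20 transcription factors of neural crest and mesenchyme 4 rose and 5 fell, with Hmga2, a chromatin protein of growing cells, up by 1.60, Zeb1 up by 1.42, Dlx5 down by 1.38 and Msx2 down by 1.06. Integrin and focal adhesion genes rose in 6 and fell in 5 of 19, with Itgb3 and Itga6 up by 2.86 and 1.55 and Vcl and Tln1 down by 1.20 and 1.07. Among 21 cell adhesion genes 3 rose, 6 fell and 12 did not pass. The immunoglobulin family members Chl1 and Alcam rose by 3.42 and 2.48, both past tissue, and E-cadherin (Cdh1) fell by 2.88. For Ncam1, of the same family, the probe sets other than the one used gave -1.41 to -0.08.

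Summed over defining markers on a linear scale and then taken to log2, fibroblast markers (6 genes) were at 14.21 to 14.48 on the cultured cell arrays and 15.07 to 15.13 on the sphere arrays. Smooth muscle markers (4 genes) were at 13.48 to 13.77 and at 10.35, 8.91 and 9.22. Schwann cell markers (5 genes) were at 9.20 to 9.93 and 9.71 to 10.35, which overlapped, beside 13.65 to 13.72 in tissue. Neuronal markers (6 genes) were at 9.81 to 10.13 and 9.88 to 10.26, macrophage markers (5 genes) at 8.63 to 9.11 and 8.43 to 8.97, and endothelial markers (4 genes) at 12.09 to 12.28 and 11.86 to 12.45, each with overlap. In tissue these 3 sums were at 15.2 to 15.3, 11.7 to 11.8 and 10.7 to 10.9, so that only the endothelial sum was higher in both cultures. Neural progenitor markers (4 genes) were at 9.82 to 10.28 and 10.84 to 11.53 and melanocyte markers (3 genes) at 6.87 to 7.11 and 7.39 to 7.77. For the fibroblast, smooth muscle, neural progenitor and melanocyte sums the sphere arrays did not overlap the cultured cell arrays. Members of a sum could move in opposite directions. The neural progenitor sum holds Prom1, which is among the 12 largest rises, beside Nes, which rose, Sox2, which did not pass, and Fabp7, which fell. The fibroblast sum holds Dcn and Lum, which rose, and Col1a1, which fell. In these mixed samples fewer cells of a type and less RNA per cell cannot be told apart, and the part of cell makeup in the results above was not tested.

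**Figure D5:**
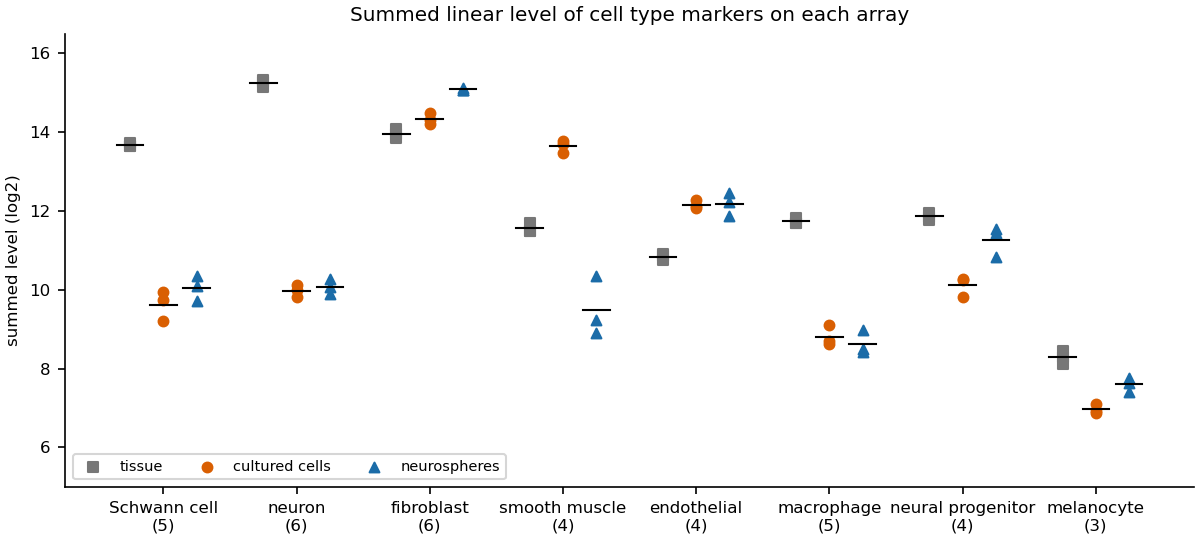
Summed linear level of the defining markers of 8 cell types (number of markers in brackets), on a log2 axis, for each of the 9 arrays (squares, tissue; circles, cultured cells; triangles, neurospheres), with black bars for group means. Fibroblast markers lie above 14 in both cultures, smooth muscle markers are lower in all 3 sphere arrays, and Schwann cell and neuronal markers stay far below tissue in both.

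Lists of other cell types were also read. The share that passed was 29.4% of macrophage, 30.8% of endothelial, 37.5% of melanocyte and 33.3% of cochlear genes, beside 17.9% of all genes. For bone and cartilage genes it was 55.6%. Of 17 macrophage genes 2 rose and 3 fell: Cd14, which fibroblasts also make, rose by 2.16 and Cd163 by 1.03, while C1qa, Csf1r and C1qc fell by 1.03, 0.75 and 0.69. The call for C1qa was lost under 8 alternatives, and 2 other probe sets of Csf1r gave 0.06 and -0.15. Of 11 blood cell genes Camp and S100a8, which encode antimicrobial proteins of neutrophils, rose by 3.69 and 2.84, while S100a9, Ngp, Ltf, Elane and Mpo did not pass. The 2 make up 18.2% of that list, near the share of all genes. Of 13 endothelial genes Esam and Egfl7 rose by 2.18 and 0.64 and Tek and Kdr fell by 2.64 and 2.12. Of 9 bone and cartilage genes 4 fell, led by Ibsp and Alpl by 3.68 and 3.48, both past tissue, and Sox9 rose. Of 8 melanocyte genes Mitf and Dct rose by 1.93 and 1.32, and Kit fell by 3.62. Of 18 cochlear epithelium and lateral wall genes 5 fell, and Tecta rose by 0.72. Krt18, Krt8 and Coch fell by 2.15, 1.95 and 1.94. Epcam fell by 1.24 in the probe set used, and a second probe set gave 1.03.

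Probe sets of a gene did not always give the same change. Examples of another probe set with a smaller change, in addition to those above, were Lif (1.42), Col5a3 (0.12), Hdac9 (0.29), Inhba (0.03), Notch4 (0.14 and 0.10), Aldh1a3 (0.54 and 0.40), Egr3 (0.22), Mitf (0.68), Bmp1 (0.24, beside another at 2.13), Itgb3 (0.66), Snap25 (0.30), Lrig1 (-0.07 and 3.07), Chl1 (0.05 to 1.30), Kit (-0.37), Ugt8a (-0.23) and Adamts5 (-3.74 to -0.20). For Cxcl12 the other probe sets gave -2.88 and 0.10, beside the -2.21 of the set used. Smaller changes also came from other probe sets of Fgfr3 (0.0015), Fgfr4 (-0.26 to 0.04), Slc1a2 (-0.36 to 0.05), Dpp4 (-1.57 to -0.36) and Hdac7 (-0.46).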

How the data were processed

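RNA of 3 tissue, 3 cultured cell and 3 neurosphere samples had been hybridised to Affymetrix mouse expression arrays after 3' labelling. The deposited values are log2 signals that the authors made with RMA in Affymetrix Expression Console, which also ran MAS5; versions are not given in the sources used here. RMA summarises the probes of a set and sets the distributions of all arrays equal, so a global change in RNA amount is lost. The table has no detection calls, so how far low levels (about 3 to 5) lie above background is unknown. Array medians were 6.15 to 6.27.

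Of 45101 probe sets 64 were controls, 34945 named 1 gene, 932 several and 9160 none here. A gene took its values from the brightest of its probe sets (mean over the 9 arrays), a choice that mattered for 9010 of 18193 genes. A GRCm38.p6 gene table served to update symbols (204 kept as given), and RefSeq promoter windows of that build were searched for motifs on both strands. Levels of different probe sets were not compared.

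Each of the 3 comparisons used its 6 arrays, and the linear model of limma 3.58.1 (R 4.3.3) with moderated 2-sided tests took the place of the methods' t-test. Genes passed with a fold over 1.5 and an adjusted p under 0.05 (Benjamini-Hochberg, all genes). A change was said to move back where the gene had also passed between tissue and cultured cells in the opposite direction. The fit was tested on simulated data.

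The comparison, the 46 gene lists (821 memberships, 778 measured and 43 not analysed here) and the rules were chosen with earlier results of these data known. Genes named were the 12 largest changes each way without overlap between groups, the leading genes that moved back, further or past tissue, for each list up to 4 passing members by size and those that went against it, and fixed markers. Predicted and sex-linked genes were left out of the first 3 kinds. Some further list members were named after their values were seen. Alternatives covered scaling, probe set choice, a filter on dim genes, the fit, the test, the fold threshold, the replicate number as a block, and the removal of single arrays.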

Additional observations from a re-analysis of the deposited data

How the results depend on the processing

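The number of changed genes was 2643 to 3295 under the other scalings, probe set choices, fits and tests, with 1269 to 1547 of them moved back, and 3161 to 3369 (1499 to 1595 moved back) leaving out each array in turn. A fold over 2 gave 1618 changed genes and 742 moved back, with 4901 between cultured cells and tissue and 4961 between neurospheres and tissue. No fold threshold gave 6367, 3341, 11641 and 11299. Testing every probe set on its own gave 6127 of 34945. Leaving out each array gave 7718 to 7776 for cultured cells against tissue and 7647 to 7808 for neurospheres against tissue. With the replicate number as a block 3253 genes changed, 1640 up and 1613 down, and 1537 moved back. The deviations of sphere and cultured cell arrays with the same number correlated at -0.10, -0.19 and 0.04, and those with unlike numbers at -0.09 to 0.21. Whether the samples were paired cannot be told from so few arrays.

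Epcam turned to 1.03 when the probe set was chosen on the 6 arrays. Of 4249 values for 225 named genes 4094 kept their direction and call, 148 lost the call, 6 gained it and 1 turned. Calls were lost most often for Vcam1, Thy1 and Ntrk3. Sox2 passed without cultured cell array 3 (1.31), as did Ngfr (0.88). Under settings other than the fold threshold 760 of 782 list counts stayed within 1.5 times, and the 24 mitosis genes passed in 23 or 24. With 3 arrays a group, small changes can be missed.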
